A study of Mus musculus with 34 samples.

Results

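Core and output genes of the circadian clock were followed in mouse liver after partial hepatectomy (PHx). The 10 genes were the transcription factors Bmal1 (also called Arntl) and Npas2, the repressors Per1, Per2, Per3, Cry1 and Ciart, the nuclear receptors Nr1d1 and Nr1d2, and the output factor Dbp. They were taken from the 78298 genes of the deposited table by their symbols, and Bmal1 by its identifier, ENSMUSG00000055116. All 10 were among the 14980 genes that were expressed highly enough to be tested. The 34 livers came from young adult male mice on a C57/Bl6 background that carried floxed Sirt1 alleles. In SIRT1intKO mice a Villin-Cre transgene deleted Sirt1 in the intestinal epithelium, and the WT mice were floxed littermates without Cre. Whole liver was taken from untreated mice (0 h; 6 WT and 6 SIRT1intKO livers) and at 6 h (6 WT and 5 SIRT1intKO) or 24 h (4 WT and 7 SIRT1intKO) after PHx, in which the left lateral and median lobes were removed. Because Villin-Cre acts in the gut, hepatic Sirt1 does not check the genotype, and its level overlapped between genotypes at each time (7.55-15.6 CPM in SIRT1intKO and 8.85-14 CPM in WT livers at 6 h).

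The mammalian clock is a transcriptional feedback loop. BMAL1 pairs with CLOCK or its relative NPAS2, binds E-boxes and switches on the Per, Cry, Ciart, Nr1d1, Nr1d2 and Dbp genes. PER, CRY and CIART proteins then repress that activity, REV-ERBs (the products of Nr1d1 and Nr1d2) repress Bmal1, Npas2 and Cry1 through ROR response elements, and DBP drives D-box genes such as Per1 and Per3. In liver this loop times much of metabolism, so that E-box genes and REV-ERB target genes normally peak at different times of day. The hour of harvest is not given in the sources used here, so time after PHx and time of day cannot be told apart.

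DNA elements of these kinds occur in the promoters of some members. The examples shown are the members with an E-box or a D-box, which moved in both directions, and Bmal1. For Ciart, Per1, Per3 and Cry1 the 250 bases before the annotated start are shown, 5′ to 3′ on the gene's strand, with matches to the E-box CACGTG, the E-box variant CACGTT, the D-box TTATGNAA and the ROR element (RORE) in capitals. Both strands were searched, and the variant in Cry1 lies on the opposite strand, so it reads AACGTG. For Bmal1 only a 30-base stretch around its ROR element is shown, which lies past the second annotated start. Sequences are from RefSeq on build GRCm38.p6, whereas the counts were made on GRCm39.
Ciart (chr3:95882229-95882478, minus strand): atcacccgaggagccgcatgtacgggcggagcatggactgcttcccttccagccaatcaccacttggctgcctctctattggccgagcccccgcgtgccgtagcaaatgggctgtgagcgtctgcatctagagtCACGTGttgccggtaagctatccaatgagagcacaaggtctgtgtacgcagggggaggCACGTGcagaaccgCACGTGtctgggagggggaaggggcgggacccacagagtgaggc
Per1, first start (chr11:69098699-69098948, plus strand): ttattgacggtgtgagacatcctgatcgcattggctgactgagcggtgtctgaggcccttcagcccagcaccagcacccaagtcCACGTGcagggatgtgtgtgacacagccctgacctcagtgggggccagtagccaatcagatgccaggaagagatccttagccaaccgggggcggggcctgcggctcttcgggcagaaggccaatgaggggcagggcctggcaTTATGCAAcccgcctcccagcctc
Per3 (chr4:151044666-151044915, minus strand): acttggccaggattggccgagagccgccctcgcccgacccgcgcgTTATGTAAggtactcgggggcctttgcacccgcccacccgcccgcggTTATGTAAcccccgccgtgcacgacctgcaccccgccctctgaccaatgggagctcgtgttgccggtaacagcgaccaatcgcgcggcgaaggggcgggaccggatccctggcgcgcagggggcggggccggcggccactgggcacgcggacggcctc
Cry1 (chr10:85185055-85185304, minus strand): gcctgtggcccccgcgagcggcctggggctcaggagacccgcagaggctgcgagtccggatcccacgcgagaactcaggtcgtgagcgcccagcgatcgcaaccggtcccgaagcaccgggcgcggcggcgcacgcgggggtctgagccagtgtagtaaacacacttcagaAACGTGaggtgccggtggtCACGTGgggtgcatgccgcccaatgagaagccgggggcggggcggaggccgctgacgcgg
Bmal1, second start (chr7:113207528-113207557, plus strand): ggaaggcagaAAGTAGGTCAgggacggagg
Ciart held 3 E-boxes, at -116, -58 and -44 from the start. Per1 held 1 E-box at -166 and 1 D-box at -24, Per3 held 2 D-boxes at -205 and -158, and Cry1 held 1 E-box at -60 and the variant at -79. Nr1d1 held only the variant, at -28. Per2 had no entry in the promoter table, and the other members held none of the 4 motifs in this window. Among 32851 RefSeq promoter windows, 6.02% held the E-box, 3.85% the variant, 3.07% the D-box and 0.177% the ROR element. The ROR element was held by 0 members in such a window, since that of Bmal1 lies past the start. The E-box was held by members that moved in both directions at 6 h: Ciart and Per1 rose and Cry1 fell. Both members with a D-box, Per1 and Per3, rose. Npas2 and Dbp, which with Ciart moved furthest at 6 h, held none of the motifs in this window. Only exact matches in 250 bases were sought, so elements elsewhere would be missed. The part of these motifs in the changes was not tested. A match describes the letters and does not show that a factor binds there.

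Library depth was 14892122-23480492 counts (median 16807340). Values below are CPM, each gene's count as a share of the scaled library total, except that log2 fold changes come from the model on counts and carry their SE. A gene was called where its Benjamini-Hochberg adjusted p over all 14980 genes (edgeR's quasi-likelihood test) was under 0.05 and its log2 fold change was beyond 1 in size. The livers at 0 h carry a library-number series of their own, apart from the livers after PHx, so differences in handling cannot be told apart from PHx in any comparison with 0 h. On the first principal component of all genes, 3 of the 11 livers at 24 h stood apart: WT replicates 3 and 4 (-8.0 and -17.6) and SIRT1intKO replicate 5 (8.1), against 49.7 to 95.9 in the other 24 h livers and -78.2 to -51.0 at 0 h. The livers at 6 h lay at 11.1 to 39.1 on this component. In whole tissue, fewer cells of a type and less RNA per cell cannot be told apart.

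At 6 h after PHx the clock genes had moved in 2 opposite directions, in both genotypes. In WT livers 6 members rose (Per1, Per2, Per3, Ciart, Nr1d2 and Dbp), and 3 fell (Bmal1, Npas2 and Cry1), where 7.17% of all genes were called higher and 8.40% lower. In SIRT1intKO livers the same 6 rose and the same 3 fell, with 7.86% of all genes called higher and 8.70% lower. The median log2 fold change of the 10 members was 1.48 in WT and 1.66 in SIRT1intKO livers, beside 0.02 and 0.01 over all genes. The 2 genotypes share no livers in these comparisons.

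**Figure D1:**
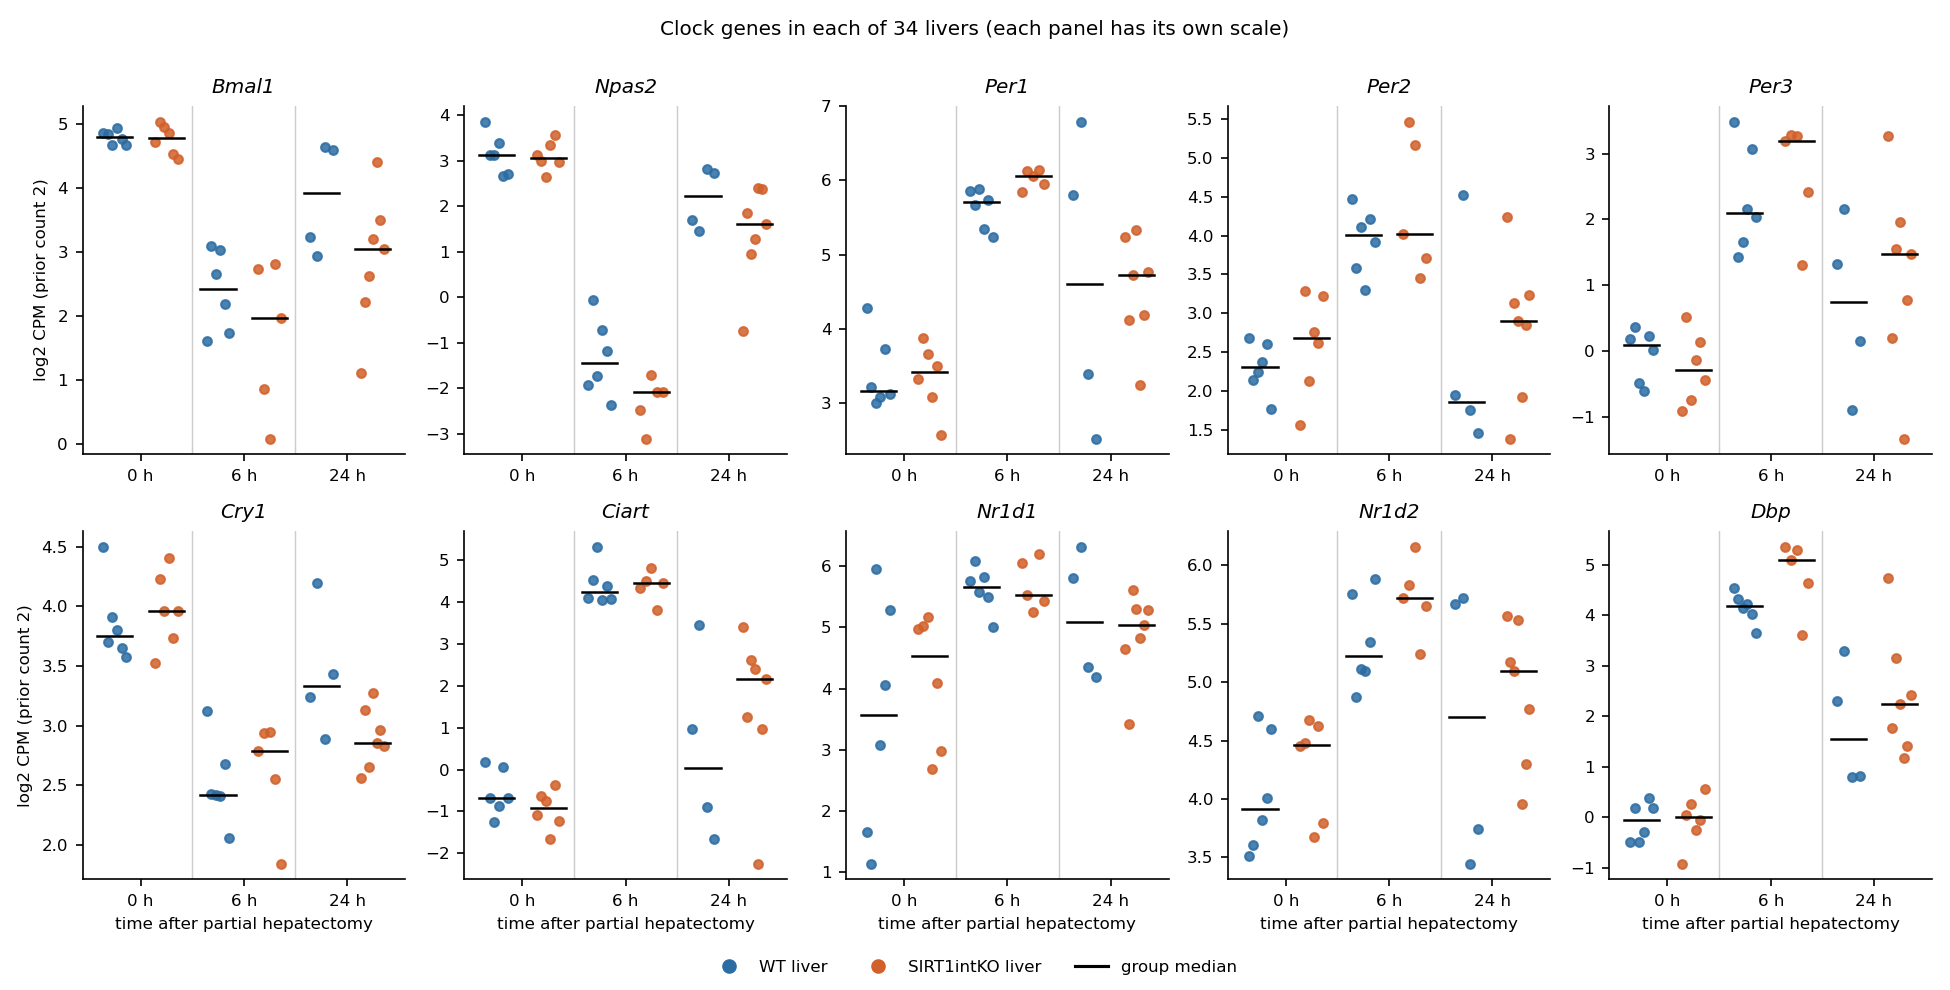
Level of each clock gene in each of the 34 livers, as log2 CPM with a prior count of 2, by time after partial hepatectomy. Points are livers (blue WT, orange SIRT1intKO) and bars are group medians. At 6 h, Bmal1, Npas2 and Cry1 lie below and Per1, Per2, Per3, Ciart, Nr1d2 and Dbp above their 0 h livers, and the 24 h livers are scattered.

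The activators fell. Bmal1, which encodes the partner shared by CLOCK and NPAS2, stood in WT livers at 25.2, 27.7 and 30.5 CPM (lowest, median and highest) at 0 h and at 2.92, 5.30 and 8.37 CPM at 6 h. In SIRT1intKO livers it stood at 21.7, 27.4 and 32.5 CPM at 0 h, and at 6.54, 1.69, 0.943, 6.92 and 3.77 CPM in the 5 livers at 6 h. The 11 livers at 6 h were thus all below the 12 livers at 0 h. The log2 fold change was -2.31 ± 0.41 (adjusted p = 5.46e-05) in WT and -2.76 ± 0.45 (adjusted p = 2.16e-05) in SIRT1intKO livers.

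Npas2, the paralog of Clock, showed the steepest fall. WT livers held 6.27, 8.61 and 14.4 CPM at 0 h and 0.0778, 0.257 and 0.837 CPM at 6 h. SIRT1intKO livers held 6.14, 8.26 and 11.8 CPM at 0 h, and 0.0641, 0, 0.189, 0.121 and 0.120 CPM at 6 h. Near-silence at 6 h left 33 counts over the 6 WT livers and 8 counts over the 5 SIRT1intKO livers, so the size of the fall is uncertain. Summed over livers, the 0 h level was 25.4 times the 6 h level in WT (95% counting interval 18-37.2) and 86.0 times in SIRT1intKO livers (43.4-200). These intervals cover counting error only. The modelled log2 fold changes were -4.66 ± 0.46 and -6.33 ± 0.58, the 49th lowest of the 14980 genes in the WT comparison.

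Among the repressors, Ciart (CHRONO), which binds BMAL1 and blocks it, rose most. It gave 3-17 counts a liver at 0 h, at 0.300, 0.512 and 1.01 CPM in WT and 0.199, 0.416 and 0.655 CPM in SIRT1intKO livers. At 6 h WT livers stood at 16.4, 18.9 and 40.1 CPM, and SIRT1intKO livers at 20.1, 22.6, 28.1, 13.9 and 21.98 CPM. No liver at 6 h overlapped the 0 h livers. The log2 fold change was 5.18 ± 0.70 in WT (adjusted p = 9.79e-07) and 5.64 ± 0.75 in SIRT1intKO livers (adjusted p = 9.48e-07), and the ratios of summed counts were 37.5 (29.1-49.1) and 50.8 (37-71.7).

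The 3 Per genes, whose products form the repressive complex with CRY, all rose at 6 h. Per1 went from 7.87, 8.87 and 19.4 CPM to 37.6, 52.0 and 59.1 CPM in WT livers, and from 5.84, 10.6 and 14.5 CPM to 57.1, 69.9, 66.3, 70.6 and 61.6 CPM in SIRT1intKO livers. The lowest 6 h liver stood above the highest 0 h liver in both genotypes, with log2 fold changes of 2.17 ± 0.43 and 2.65 ± 0.45. Per3 went from 0.538, 0.956 and 1.18 CPM to 2.57, 4.16 and 11.1 CPM in WT, and from 0.414, 0.708 and 1.32 CPM to 9.04, 9.65, 9.56, 2.37 and 5.21 CPM in SIRT1intKO livers. Its log2 fold changes were 2.65 ± 0.57 and 3.21 ± 0.60, also without overlap.

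Per2 rose in both genotypes. WT livers went from 3.27, 4.84 and 6.32 CPM to 9.69, 16.04 and 22.1 CPM, and SIRT1intKO livers from 2.84, 6.33 and 9.66 CPM to 16.2, 44.2, 35.97, 10.9 and 12.9 CPM. The groups did not overlap within a genotype, although the lowest SIRT1intKO liver at 6 h was close to the highest at 0 h. The log2 fold changes were 1.67 ± 0.46 (adjusted p = 0.00507) and 1.90 ± 0.48 (adjusted p = 0.00212).

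Cry1, the repressor that in liver is also a REV-ERB target, moved against the Per genes. WT livers fell from 11.8, 13.4 and 22.5 CPM to 4.05, 5.25 and 8.61 CPM, and SIRT1intKO livers from 11.4, 15.4 and 21 CPM to 6.80, 7.54, 7.61, 5.77 and 3.47 CPM. The groups did not overlap. The log2 fold change was -1.35 ± 0.22 in WT and -1.35 ± 0.23 in SIRT1intKO livers (adjusted p = 1.13e-05 and 2.98e-05).

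Among the REV-ERB genes, which encode heme-binding repressors, Nr1d1 was uneven before surgery. It ranged from 2.09 to 61.6 CPM among the 6 WT livers at 0 h, a 29.4-fold spread, and from 6.30 to 35.8 CPM among the SIRT1intKO livers. The 6 WT livers stood at 3.04, 2.09, 61.6, 8.29, 16.5 and 38.9 CPM. Bmal1 in those livers spread only 1.21-fold. Nr1d2 had its 2 highest WT values in the same livers as Nr1d1, replicates 3 and 6, with 26.1 and 24.2 CPM against 11.3-15.96 CPM in the others.

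At 6 h Nr1d1 stood at 31.98, 50.6 and 67.6 CPM in WT livers and at 66.1, 45.9, 37.9, 73.0 and 43.0 CPM in SIRT1intKO livers. The WT groups overlapped through replicates 3 and 6 at 0 h, and the SIRT1intKO groups did not overlap. Nr1d1 was not called, with log2 fold changes of 1.21 ± 0.55 (adjusted p = 0.0798) and 1.29 ± 0.57 (adjusted p = 0.0700). Without WT 0 h replicate 3 it was called in WT livers, at 1.88 (adjusted p = 0.00858), and also in SIRT1intKO livers, at 1.29 (adjusted p = 0.0491), although that liver is not in the SIRT1intKO comparison and enters it only through the shared estimate of spread. Nr1d2 rose in both genotypes, from 11.3, 14.98 and 26.1 CPM to 29.2, 37.5 and 58.9 CPM in WT and from 12.7, 22 and 25.5 CPM to 52.7, 56.9, 71.4, 37.6 and 50.3 CPM in SIRT1intKO livers. Its log2 fold changes were 1.28 ± 0.33 and 1.42 ± 0.34, with no overlap.

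Dbp, a PAR bZIP activator that relays the E-box phase to output genes, rose from 7-22 counts a liver. It stood at 0.596, 0.861 and 1.19 CPM at 0 h and at 12.53, 18.1 and 23.3 CPM at 6 h in WT livers. In SIRT1intKO livers it stood at 0.414, 0.886 and 1.37 CPM at 0 h and at 40.9, 34.2, 39.2, 12.2 and 24.8 CPM at 6 h. Each 6 h liver lay above all 0 h livers. The log2 fold changes were 4.39 ± 0.54 (adjusted p = 2.44e-07) and 5.07 ± 0.56 (adjusted p = 5.48e-08). Dbp shares 539 exon bases with Sphk2, and Nr1d1 263 bases with Thra, on the opposite strand in GENCODE vM21. The library kit keeps strand, but the strand setting of the counting is not given in the sources used here.

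**Figure D2:**
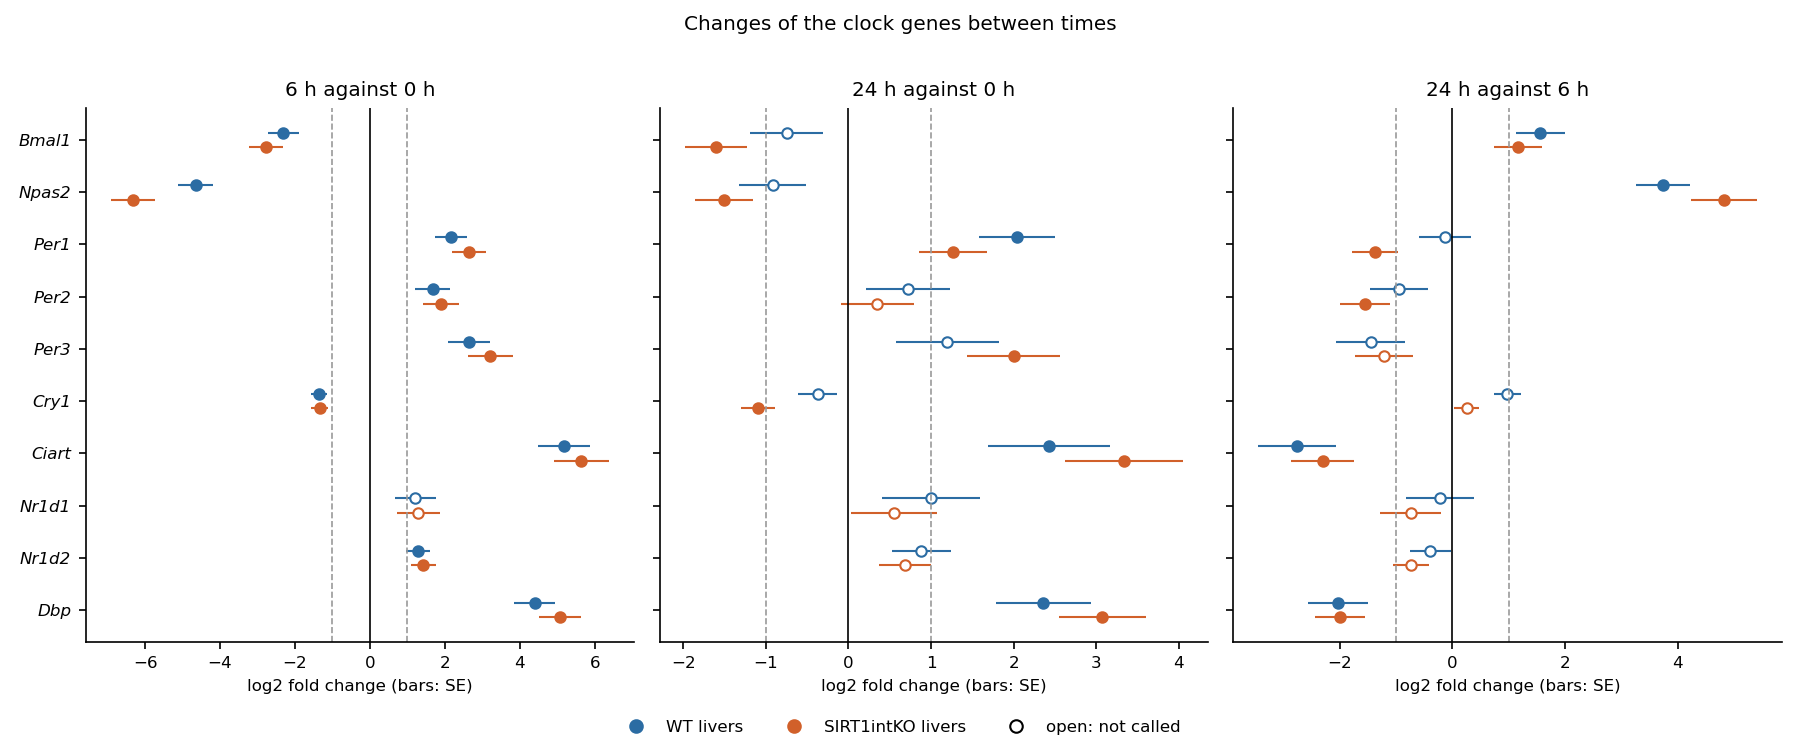
Log2 fold changes of the clock genes between times, with bars of 1 SE, in WT (blue) and SIRT1intKO livers (orange). Filled points were called, open points were not, and dashed lines mark a log2 fold change of 1 in size. The 6 h panel shows the widest changes, from -6.33 (Npas2) to 5.64 (Ciart), both in SIRT1intKO livers.

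By 24 h fewer members were called against 0 h than at 6 h. In WT livers 3 members remained above 0 h (Per1, Ciart and Dbp) and 0 were below it, where 8.32% of all genes were called higher and 7.40% lower. By edgeR 5 of the 10 had an unadjusted p under 0.05 in WT livers, as had 43.9% of all genes. Of these 5 members 1 (Npas2) was below 0 h, and DESeq2 called the same 3 members higher and 0 lower. The 6 h and 24 h comparisons share their 0 h livers. In SIRT1intKO livers 4 members were higher (Per1, Per3, Ciart and Dbp) and 3 lower (Bmal1, Npas2 and Cry1), beside 11.9% and 11.1% of all genes. The largest changes were those of Ciart, 2.43 ± 0.73 in WT and 3.34 ± 0.71 in SIRT1intKO livers, and of Dbp, 2.36 ± 0.57 and 3.07 ± 0.53. The median over the members was 0.94 in WT and 0.62 in SIRT1intKO livers, beside 0.02 and 0.04 over all genes.

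Between 6 h and 24 h, both within the post-PHx library series, several members moved back towards their 0 h levels. In WT livers Bmal1 (1.56 ± 0.44) and Npas2 (3.74 ± 0.48) rose and Ciart (-2.75 ± 0.69) and Dbp (-2.03 ± 0.54) fell, where 4.44% of all genes were called higher and 2.72% lower. In SIRT1intKO livers Bmal1 (1.16 ± 0.43) and Npas2 (4.83 ± 0.58) rose and Per1 (-1.38 ± 0.41), Per2 (-1.55 ± 0.45), Ciart (-2.30 ± 0.56) and Dbp (-1.997 ± 0.45) fell, where 6.70% of all genes were called higher and 3.91% lower. Cry1 in WT livers had an adjusted p of 0.00450 but a log2 fold change of 0.98, just short of the threshold. The WT count depended on which 24 h livers were kept. Bmal1 stood at 9.28 and 7.54 CPM in WT 24 h replicates 1 and 2, against 2.92-8.37 CPM at 6 h. Without the 3 livers that stood apart, 2 members were called higher and 1 lower in WT livers, beside 8.72% and 10.3% of all genes. In SIRT1intKO livers 1 was then higher and 4 lower, beside 8.98% and 4.89%. Without WT 24 h replicates 1 and 2 instead, 2 were higher and 6 lower in WT livers, beside 2.57% and 2.10%. The Bmal1 call in SIRT1intKO livers (adjusted p = 0.0415) was lost without any 1 of 6 of these livers, the lowest estimate being 0.79 without 24 h replicate 5 (adjusted p = 0.130), and the Per2 call without 6 h replicate 2 (-1.20, adjusted p = 0.0582).

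Single livers differed widely at 24 h. Bmal1 stood at 9.28, 7.54, 24.7 and 24.0 CPM in WT replicates 1 to 4, so that replicates 3 and 4 nearly reached the lowest 0 h liver (25.2 CPM). Per1 stood at 55.8, 111, 10.4 and 5.63 CPM in the same 4 livers, and Ciart at 1.85, 10.9, 0.419 and 0.199 CPM. The pair with high Bmal1 thus had Per1 and Ciart within or below their 0 h ranges, and the other pair had Per1 within or above its 6 h range.

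The SIRT1intKO livers at 24 h were spread as well. Bmal1 stood at 2.05, 8.15 and 20.98 CPM (lowest, median and highest of 7), Per1 at 9.34, 26.2 and 40.1 CPM and Dbp at 2.16, 4.61 and 26.7 CPM. Replicate 5 held the highest Bmal1 and the lowest Per1, Per3 (0.282 CPM), Ciart (0.0939 CPM), Nr1d2 (15.4 CPM) and Dbp. Replicate 1 held the lowest Bmal1 and Npas2 (0.482 CPM) and the highest Per2 (18.7 CPM), Per3 (9.51 CPM), Ciart (10.5 CPM), Nr1d2 (47.3 CPM) and Dbp. Of the 10 members, 7 lay within the range of all 6 h livers in replicate 1, and 1 did in replicate 5. Within the range of all 0 h livers lay 1 member in replicate 1 and 4 in replicate 5, as many as in replicate 6 (4).

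**Figure D3:**
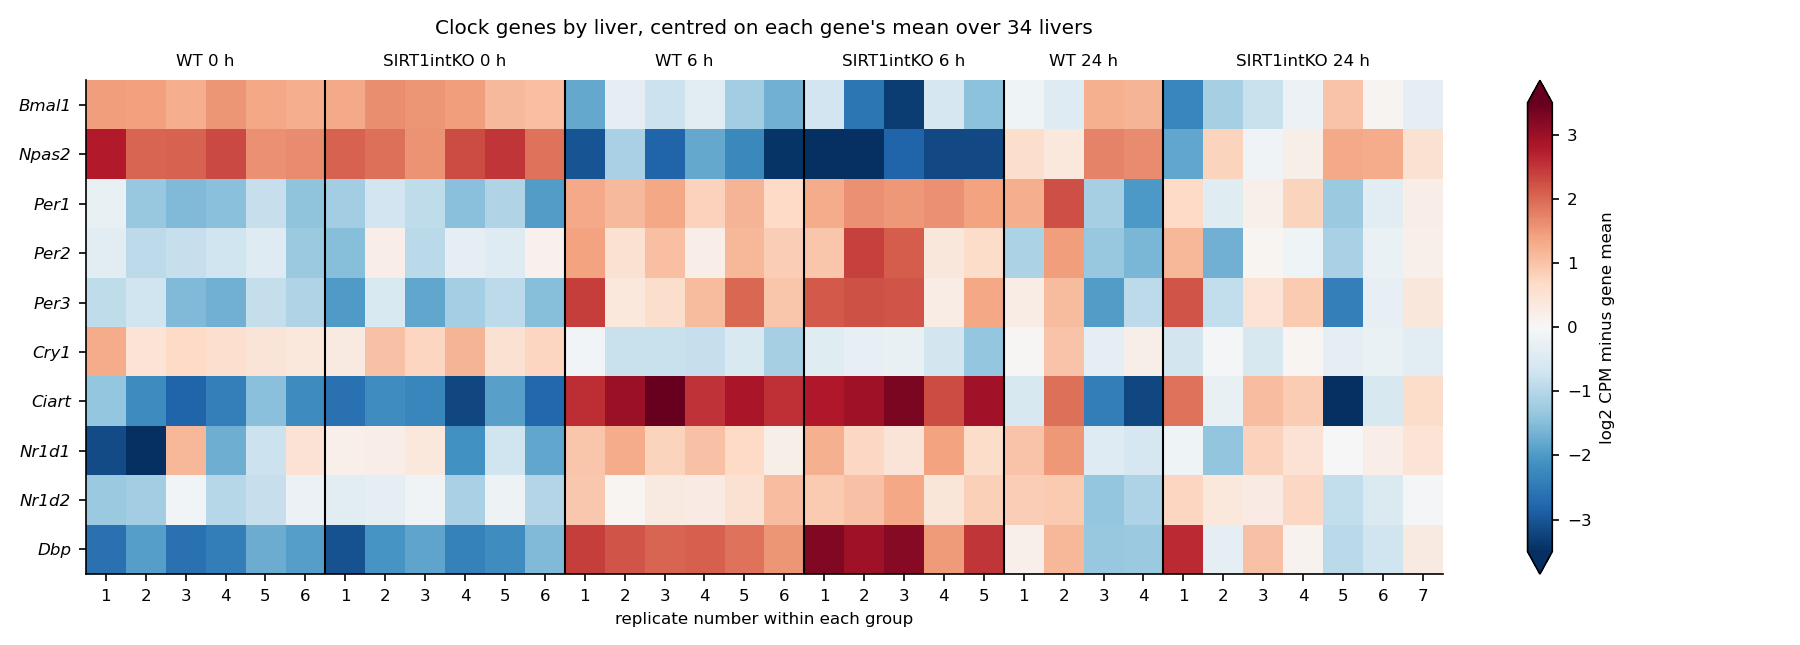
Clock genes in every liver as log2 CPM minus the gene's mean over the 34 livers (blue low, red high), with replicate numbers along the bottom axis. WT replicates 3 and 4 and SIRT1intKO replicate 5 at 24 h show the colours of the 0 h livers for Bmal1, Per1 and Ciart, and SIRT1intKO replicate 1 those of the 6 h livers for Bmal1, Per3 and Dbp. Of the 10 members, 7, 6 and 4 lay within the 0 h range in WT replicates 3 and 4 and SIRT1intKO replicate 5.

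The WT result at 24 h depended on which livers were kept. Without WT replicates 3 and 4 and SIRT1intKO replicate 5, 9 of the 10 members were called against 0 h in WT livers in place of 3 (7 higher and 2 lower, where 14.5% of all genes tested in that fit were higher and 16.4% lower), among them Bmal1 at -1.68 (adjusted p = 0.00738), Npas2 at -1.63 and Nr1d2 at 1.62. Without WT replicates 1 and 2 instead, 0 were called, beside 235 of 15619 genes higher and 281 lower, with Per1 at -0.47 and Ciart at -0.97. Either choice leaves 2 WT livers, which the fit takes to vary like the other groups. Leaving out WT replicate 2 alone ended the calls of Per1 (1.11, adjusted p = 0.0629) and Ciart (0.37, adjusted p = 0.775). In SIRT1intKO livers 7 members were called at 24 h with or without the 3 livers, the same 7 genes, beside 14.2% of all genes higher and 11.8% lower without them.

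Comparing the genotypes asked whether loss of intestinal Sirt1 altered these hepatic transcripts. At 0 h, 0 of the 10 members were called by edgeR, as were 0% of all genes. An unadjusted p under 0.05 was held by 0 members, beside 1.07% of all genes. At 6 h, 0 members were called, as were 0% of all genes. An unadjusted p under 0.05 was held by 6.52% of all genes and by 1 member. That gene was Npas2, at 0.0778-0.837 CPM in WT and 0-0.189 CPM in SIRT1intKO livers, ranges that overlapped. Its log2 difference was -1.75 ± 0.72 (adjusted p = 0.736). The 33 and 8 counts give a WT to SIRT1intKO ratio of 3.58 with a 95% counting interval of 1.62-8.96, which leaves out the spread between livers.

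At 24 h, 0 members were called between the genotypes by edgeR, where 2.68% of all genes were. An unadjusted p under 0.05 was held by 2 members, beside 23.4% of all genes. Cry1 stood at 9.35, 18.2, 7.28 and 10.7 CPM in WT and at 5.78, 7.13 and 9.54 CPM in SIRT1intKO livers, with a log2 difference of -0.62 ± 0.22 (adjusted p = 0.0912). Bmal1 had a log2 difference of -0.88 ± 0.42 (adjusted p = 0.194). Both pairs of groups overlapped. In fits that left out 1 liver, Bmal1 was called without SIRT1intKO replicate 5 (-1.25, adjusted p = 0.0356) and Ciart without WT replicate 2 (2.43, adjusted p = 0.0411), against 0.38 ± 0.64 (adjusted p = 0.761) for Ciart with all livers. The sign of Per1 depended on which WT livers were kept: it was -0.86 ± 0.44 (adjusted p = 0.227) with all livers, -1.58 (adjusted p = 0.000756) without the 3 that stood apart, and 1.65 (adjusted p = 0.00714) without WT replicates 1 and 2. Of all genes, 8.18% and 9.22% were called in these 2 fits.

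The change from 0 h was also compared between the genotypes. At 6 h this difference was called for 0 of the 10 members and 0% of all genes, with 1 member (Npas2, -1.68 ± 0.80) at an unadjusted p under 0.05 (adjusted p = 1). At 24 h it was called for 0 members and 0.00668% of all genes, and 1 member had an unadjusted p under 0.05, Cry1 (-0.72 ± 0.31, adjusted p = 0.321). Of all genes, 3.05% at 6 h and 12.7% at 24 h had an unadjusted p under 0.05. The SE of these differences ran from 0.30 to 1.01 at 6 h and from 0.31 to 1.06 at 24 h, so the missing calls do not show that the genotypes responded alike. DESeq2 also called 0 members in these comparisons and in those between genotypes.

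Ordered by group mean of CPM, all 10 members placed both 6 h groups at one end and both 0 h groups at the other, with the 24 h groups between. The end with the 6 h groups was the low one for Bmal1, Npas2 and Cry1 and the high one for the others. For Per2 the place of the WT livers at 24 h rested on replicate 2 (22.9 CPM), since the other 3 livers held at most 3.75 CPM, below the WT median at 0 h. Groups next to each other in this order overlapped in range, apart from a single step each in Ciart and Dbp. For Ciart the SIRT1intKO livers at 6 h (lowest 13.9 CPM) stood clear of those at 24 h (highest 10.5 CPM), and for Dbp the WT livers at 24 h (lowest 1.62 CPM) stood clear of the SIRT1intKO livers at 0 h (highest 1.37 CPM).

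Genes whose 6 group means followed a member most closely were sought among 12376 genes with a mean of at least 1 CPM. The measure was the root-mean-square difference between centred group means of log2 CPM, over 6 groups. For Bmal1 they were A530020G20Rik (0.23), Angptl8 (0.24), 1810064F22Rik (0.25), Klf12 (0.28) and Ermardl1 (0.31). For Per1 they were Gm56730 (0.11), Lpgat1 (0.15), Marveld3 (0.17), Epb41 (0.17) and Amigo3 (0.21). For Nr1d1 they were Csrnp1 (0.09), Scara5 (0.10), Rtn4rl2 (0.15), Il1r1 (0.17) and Zfp251 (0.18). The clock members themselves were left out of this search, so none of them could appear. Whether another member followed Bmal1, Per1 or Nr1d1 more closely than these genes was not tested. None of the genes named was on another clock list used here.

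Other genes of the loop moved as well at 6 h. Of 8 such genes (Clock, Cry2, Rora, Bhlhe40, Bhlhe41, Nfil3, Bmal2 and Timeless), 3 rose at 6 h in each genotype by edgeR and DESeq2, and 6 had an unadjusted p under 0.05 by edgeR. By edgeR 7.17% of all genes were called higher in WT and 7.86% in SIRT1intKO livers. An unadjusted p under 0.05 was held by 45.6% and 46.9% of all genes. Bhlhe41 (DEC2), an E-box repressor, rose from 0.108-0.721 to 1.73-5.25 CPM in WT livers, with log2 fold changes of 2.62 ± 0.50 in WT and 2.70 ± 0.51 in SIRT1intKO livers. Bmal2, a Bmal1 paralog (1.15 ± 0.41 and 1.29 ± 0.43), and Timeless, a replication-fork factor (1.07 ± 0.20 and 1.31 ± 0.21), rose modestly. Bmal2 was at a low level, 0.255-0.99 CPM at 0 h and 0.623-1.90 CPM at 6 h in WT livers. In SIRT1intKO livers it stood at 0.296-1.05 and 0.898-2.10 CPM. Clock itself was not called, at -0.33 ± 0.20 and -0.63 ± 0.21. The list's median was 0.19 in WT and 0.85 in SIRT1intKO livers. The Bmal2 call in WT livers was lost without any 1 of 6 of those livers, with estimates down to 0.98 (adjusted p = 0.0694) without WT 0 h replicate 2, and that in SIRT1intKO livers without 6 h replicate 5 (1.13, adjusted p = 0.0522). Timeless dropped below the fold threshold in WT livers without 0 h replicate 6 (0.99) or 6 h replicate 4 (0.94).

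Enzymes that modify PER and CRY proteins were also read at 6 h. Of 9 kinases, ubiquitin ligases and a deubiquitinase, 0 were called at 6 h in WT livers by edgeR or DESeq2, with 4 at an unadjusted p under 0.05, and 1 rose in SIRT1intKO livers. That gene was Csnk1e, casein kinase 1 epsilon (0.79 ± 0.27 in WT and 1.19 ± 0.28 in SIRT1intKO livers), named after its values were seen. Of all genes, 7.17% were higher and 8.40% lower in WT and 7.86% and 8.70% in SIRT1intKO livers. In WT livers 45.6% of all genes had an unadjusted p under 0.05.

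Liver output genes moved in both directions. Of 14 genes, 5 rose and 3 fell in WT and 6 rose and 3 fell in SIRT1intKO livers at 6 h. Of all genes, 7.17% were called higher and 8.40% lower in WT and 7.86% and 8.70% in SIRT1intKO livers. Tef, a PAR bZIP factor related to Dbp, rose by 1.89 ± 0.35 and 2.12 ± 0.36, Por, the reductase that feeds electrons to cytochromes P450, by 2.06 ± 0.18 and 2.03 ± 0.19, and St3gal5, the GM3 ganglioside synthase, by 2.505 ± 0.27 and 2.30 ± 0.28. Alas1, the first enzyme of heme synthesis (2.20 ± 0.44 and 1.74 ± 0.45), and Noct, nocturnin (1.43 ± 0.43 and 2.20 ± 0.45), rose too. Elovl3, a fatty acid elongase, stood at 596-1233 CPM at 0 h and at 40.1-93.9 CPM at 6 h in WT livers (-4.27 ± 0.65 and, in SIRT1intKO livers, -4.13 ± 0.69). Upp2, a uridine phosphorylase (-2.10 ± 0.66 and -2.28 ± 0.71), and Nr1i3, the nuclear receptor CAR (-1.07 ± 0.42 and -1.59 ± 0.46), fell as well. The Nr1i3 call in WT livers was lost in 13 of 34 fits that left out 1 liver, down to -0.90 (adjusted p = 0.0993) without WT 6 h replicate 3.

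**Figure D4:**
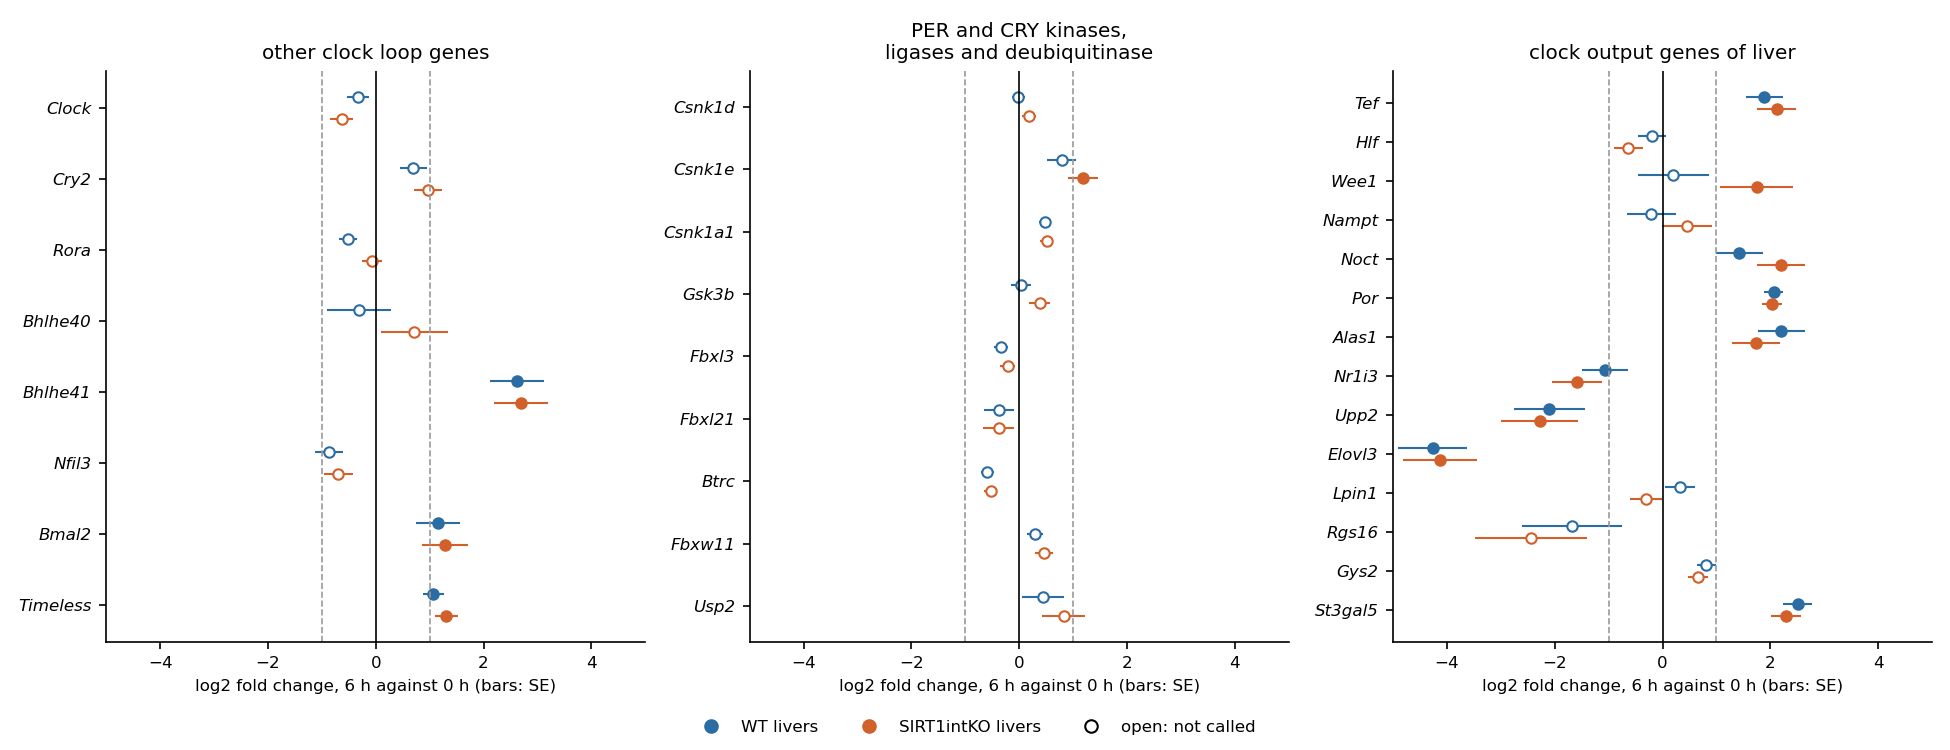
Log2 fold changes at 6 h against 0 h, with bars of 1 SE, for other loop genes (left), enzymes acting on PER and CRY (middle) and liver output genes (right), in WT (blue) and SIRT1intKO livers (orange). Filled points were called. Output genes spread from -4.27 (Elovl3) to 2.505 (St3gal5), and the enzymes lie between -0.59 (Btrc) and 1.19 (Csnk1e).

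At 24 h against 0 h, 2 of the 14 output genes were higher and 4 lower in each genotype, beside 8.32% and 7.40% of all genes in WT and 11.9% and 11.1% in SIRT1intKO livers. Lpin1, a phosphatidate phosphatase, was not called at 6 h but went from 165-527 CPM at 0 h to 49.5-118 CPM at 24 h in WT livers. The SIRT1intKO livers held 197-458 CPM at 0 h and 54.1-128 CPM at 24 h, and neither genotype showed an overlap (-1.98 ± 0.34 and -2.09 ± 0.28). Elovl3 (-2.80 ± 0.71 and -4.33 ± 0.61) and Upp2 (-2.74 ± 0.79 and -4.92 ± 0.70) were lower as well, and Por was higher (1.04 ± 0.19 and 1.06 ± 0.17). Of the other lists, Bmal2 (1.53 ± 0.44 and 1.46 ± 0.40), Timeless (1.25 ± 0.22 and 1.202 ± 0.20) and Csnk1e (1.39 ± 0.29 and 1.33 ± 0.26) were higher in both genotypes. The WT call of Bmal2 was lost without 24 h replicate 1 (0.67, adjusted p = 0.265) and that of Csnk1e without 24 h replicate 2 (0.83), and Por dropped below the fold threshold without WT 0 h replicate 4 (0.99) or 24 h replicate 2 (0.895) or 3 (0.96), and in SIRT1intKO livers without 0 h replicate 5 (0.95) or 24 h replicate 4 (0.99). Without WT 24 h replicates 1 and 2 together, the WT calls of Bmal2 (0.35), Timeless (0.91), Csnk1e (0.30) and Upp2 (-1.78) were lost.

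Between 6 h and 24 h, 6 output genes fell in WT and 7 in SIRT1intKO livers, beside 2.72% and 3.91% of all genes. In WT livers 1 rose and in SIRT1intKO livers 0 did, beside 4.44% and 6.70% of all genes. Gys2, the liver glycogen synthase, went from 102-153 to 23.3-44.2 CPM in WT livers (-2.02 ± 0.21, and -1.64 ± 0.18 in SIRT1intKO livers). Lpin1 (-2.31 ± 0.34 and -1.78 ± 0.28), St3gal5 (-1.93 ± 0.31 and -1.55 ± 0.26), Tef (-1.25 ± 0.39 and -1.38 ± 0.33) and Alas1 (-1.47 ± 0.50 and -1.61 ± 0.43) fell too, as did Bhlhe41 of the loop list (-1.87 ± 0.55 and -1.92 ± 0.46). Fbxl21, an F-box protein that acts on CRY, rose from a low level (0.374-0.856 to 0.738-1.71 CPM in WT livers; 1.08 ± 0.29 and 1.22 ± 0.27). Several of these calls in WT livers hung on single livers: Tef was lost without 6 h replicate 1 or 5 or 24 h replicate 1, 3 or 4 (-1.33 to -0.97), Alas1 without 6 h replicate 2 or 3 or 24 h replicate 1 or 4 (-1.42 to -1.02), Bhlhe41 without 24 h replicate 3 (-1.48, adjusted p = 0.0604) and Fbxl21 without 24 h replicate 2 (0.85, adjusted p = 0.0616).

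Between the genotypes at 24 h, 1 of the 8 loop genes and 1 of the 14 output genes were called, where 2.68% of all genes were, both lower in SIRT1intKO livers, and both are named after their values were seen. Nfil3 (E4BP4), which represses D-box genes, stood at 44.5-79.6 CPM in WT and 13.8-43.9 CPM in SIRT1intKO livers, without overlap (-1.18 ± 0.27, adjusted p = 0.0146). It was called also without the 3 livers that stood apart (-1.05, adjusted p = 0.0322). With the groups compared fitted alone, the adjusted p was 0.257. Upp2 was lower by -2.51 ± 0.69 (adjusted p = 0.0286), but its call was lost in 6 of 34 fits that left out 1 liver, and its sign turned without those 3 livers (0.62, adjusted p = 0.453).

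Genes that answer to temperature or to glucocorticoids, both of which can shift peripheral clocks, were also read. Of 7 temperature-responsive genes, 1 rose and 2 fell at 6 h in WT and 1 rose and 1 fell in SIRT1intKO livers, beside 7.17% of all genes higher and 8.40% lower in WT and 7.86% and 8.70% in SIRT1intKO livers. Cold-induced Rbm3 rose (1.87 ± 0.44 and 1.74 ± 0.46) and the chaperone Hsph1 fell (-1.53 ± 0.43 and -1.58 ± 0.46). Cirbp of the same list, named after its values were seen, was not called at 6 h. Its mean was 16.9 CPM at 0 h and 17.5 CPM at 6 h in WT livers, and 15.65 and 15.3 CPM in SIRT1intKO livers. Of 8 glucocorticoid-responsive genes, 3 rose and 1 fell in WT and 3 rose and 2 fell in SIRT1intKO livers. Fkbp5 (2.27 ± 0.25 and 1.83 ± 0.25) and Mt2 (3.52 ± 0.77 and 4.80 ± 0.83) rose, and Tsc22d3 fell (-1.55 ± 0.34 and -1.63 ± 0.36). At 24 h against 0 h Rbm3 (2.61 ± 0.48 and 2.82 ± 0.45), Mt2 (3.34 ± 0.81 and 4.60 ± 0.81) and Fkbp5 (1.03 ± 0.26 and 1.34 ± 0.23) were higher and Tsc22d3 was lower (-2.29 ± 0.40 and -2.07 ± 0.32). In WT livers the calls of Rbm3 (0.03, adjusted p = 0.983), Mt2 (2.51, adjusted p = 0.106) and Fkbp5 (0.97, adjusted p = 0.0739) were lost without 24 h replicates 1 and 2, and Fkbp5 dropped below the fold threshold without 0 h replicate 2 (0.97), 3 (0.91) or 4 (0.93). Tat, tyrosine aminotransferase, fell between 6 h and 24 h (-1.22 ± 0.33 and -1.28 ± 0.28), a call lost in WT livers without 24 h replicate 1 (-1.005, adjusted p = 0.0666). Their part in the clock result was not tested.

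Cell-type markers were read beside the clock genes. The hepatocyte marker sum (8 genes, all detected) was high in all livers, at 75070-85300 CPM in WT at 0 h, 39410-76520 CPM at 6 h and 33370-45470 CPM at 24 h, and in SIRT1intKO livers at 66600-92130, 55740-70190 and 37940-74890 CPM. Sinusoidal endothelial markers (5 genes) summed to 103-148, 80.8-167 and 33.7-90.3 CPM in WT and 112-179, 58.0-128 and 47.4-102 CPM in SIRT1intKO livers. At 6 h against 0 h 1 of them was called higher in WT and 2 lower in SIRT1intKO livers. At 24 h 4 were lower in WT, and 3 were lower and 1 higher in SIRT1intKO livers. Kupffer cell markers (5 genes) summed to 60.4-162, 50.4-182 and 18.2-93.8 CPM in WT and 101-222, 59.5-101 and 75.4-273 CPM in SIRT1intKO livers. At 6 h 0 were called in WT, and 2 were lower and 1 higher in SIRT1intKO livers. At 24 h 3 were lower in WT, and 1 was lower and 1 higher in SIRT1intKO livers. Monocyte and macrophage markers (6 genes) summed to 44.8-69.55 CPM at 0 h, 28.95-74.3 CPM at 6 h and 35.4-60.2 CPM at 24 h in WT livers. In SIRT1intKO livers they summed to 40.7-95.1 CPM at 0 h, 23.54-33.7 CPM at 6 h and 44.34-207.7 CPM at 24 h. At 6 h 1 was higher in WT, and 2 were lower and 1 higher in SIRT1intKO livers. At 24 h 3 were higher and 1 lower in WT, and 4 were higher in SIRT1intKO livers. Of all genes, 7.17% were higher and 8.40% lower at 6 h in WT and 7.86% and 8.70% in SIRT1intKO livers. At 24 h these shares were 8.32% and 7.40% in WT and 11.9% and 11.1% in SIRT1intKO livers. Lymphocyte markers (6 genes, 1 high enough to be tested) were low, at 1.09-4.52 CPM in both genotypes at 0 h and 0.292-1.21 CPM at 6 h. At 6 h the neutrophil sum (6 genes) was 5.44-58.1 CPM in WT and 8.69-16.2 CPM in SIRT1intKO livers, against 6.73-22.2 and 4.14-20.6 CPM at 0 h (1 of the 6 genes at 0 in the SIRT1intKO livers). At 24 h it ranged from 6.97 to 102 CPM in WT and from 22.1 to 935 CPM in SIRT1intKO livers. The 3 livers that stood apart had the 3 lowest sums at 24 h (13.4, 6.97 and 22.1 CPM) and the 3 lowest cholangiocyte sums (64.5, 78.8 and 53.7 CPM, 5 genes). The part of these cells in the clock result was not tested.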

How the data were processed

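RNA was measured by stranded poly(A) sequencing of 34 whole livers, described by the labels as biological replicates. The authors aligned reads with STAR on GRCm39 and used Salmon to make the deposited table of expected counts per gene, summed from transcripts, per the submitters' processing notes. Tool versions are not given in the sources used here. Of its 35 columns, 1 matched no sample and was not used. The expected counts (4.97% not whole) were rounded. Gene symbols in the table lack the letter x, and 1255 were restored from identifiers, which touched no clock member.

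Genes were filtered by group with filterByExpr (14980 of 78298 kept), libraries were scaled by TMM, and 1 quasi-likelihood model with a mean per group was fitted over all 34 libraries in edgeR 4.0.16 (R 4.3.3), with Benjamini-Hochberg adjustment over all genes. Calls needed an adjusted p under 0.05 and a log2 fold change beyond 1 in size, the thresholds of the study. The common biological coefficient of variation was 0.302. Log2 CPM used a prior count of 2. All 10 clock genes are named; genes of other lists are named where called between times in both genotypes, with exceptions stated. A gene of the loop list is not reported here. The members and lists were chosen with earlier results of these data known. DESeq2 1.42.0, other scalings, filters, fits and left-out livers were tried as alternatives. The fits were tested on simulated data.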

Additional observations from a re-analysis of the deposited data

Results flagged for a closer look

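Each clock gene was checked in each group for a single liver far from the rest by Dixon's gap ratio, in 60 checks. The threshold flags about 1 group in 20 where values are normally distributed. The check was made on CPM, which need not be, so that rate may not hold here. In all, 7 values stood out. At 24 h these were Per2 (22.9 CPM, nearest 3.75 CPM) and Ciart (10.9 CPM, nearest 1.85 CPM) in WT replicate 2, and Per2 (18.7 CPM, nearest 9.33 CPM), Per3 (9.51 CPM, nearest 3.80 CPM) and Dbp (26.7 CPM, nearest 8.83 CPM) in SIRT1intKO replicate 1. The others were Cry1 in WT 0 h replicate 1 (22.5 CPM, nearest 14.89 CPM) and Ciart in WT 6 h replicate 3 (40.1 CPM, nearest 23.1 CPM). All 7 were the highest value of their group, and 5 of them came from 2 livers. For 0 of the 10 members did the change from 0 h pass the test of a difference between genotypes.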

How the results depend on the processing

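Under DESeq2 and under both other scalings (RLE and upper-quartile), every count of members called and every gene value computed kept its direction and its side of the threshold, except Fkbp5 at 24 h against 0 h in WT livers (0.99 with upper-quartile scaling). With at least 10 counts required in every library 6 of the 10 members could be tested, and of these the members called numbered 5 and 5 at 6 h against 0 h (WT, SIRT1intKO), 1 and 3 at 24 h against 0 h, and 1 and 3 at 24 h against 6 h. Fkbp5 was again just below the fold threshold. Under this filter, and in the fits of only the compared groups below, shares of all genes called were not computed. With only the compared groups fitted, 15 calls of single genes were lost and 1 was gained. Among the members Ciart at 24 h against 0 h in WT (adjusted p = 0.0666), Bmal1 (0.0512) and Ciart (0.08795) at 24 h against 6 h in WT and Bmal1 at 24 h against 6 h in SIRT1intKO (0.142) were lost, so that 2 in place of 4 were called at 24 h against 6 h in WT livers, and Nr1d1 at 6 h in SIRT1intKO livers was gained (adjusted p = 0.0173). The other 11 losses were of list genes, 9 of them in WT livers and 2 (Nfil3 and Upp2) between genotypes. On the adjusted p alone, Cry1 at 24 h against 6 h and Csnk1e at 6 h were called in WT livers. Keeping every gene with a count ended 5 calls, those of Bmal1 at 24 h against 6 h in SIRT1intKO (adjusted p = 0.0548) and, in WT, of Bmal2 (0.0546) and Nr1i3 (0.0586) at 6 h and Fbxl21 (0.0532) and Alas1 (0.0507) at 24 h against 6 h.

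Leaving out 1 liver at a time gave 1 to 6 members called at 24 h against 0 h in WT livers and 0 to 1 between genotypes at 24 h. Shares of all genes called were not computed for these fits. Signs turned for Per2 at 24 h against 0 h (-0.61 to 1.02 in WT, -0.0051 to 0.50 in SIRT1intKO), for Per1 (-1.04 to 0.24) and Nr1d1 (-0.67 to 0.0518) at 24 h against 6 h in WT, and for Per1 (-1.23 to 0.0623) and Ciart (-0.0462 to 2.43) between genotypes at 24 h. Of these 6 results none was called with all livers.

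Leaving out several 24 h livers was chosen after seeing the data. Without WT replicates 1 and 2, members called numbered 0 at 24 h against 0 h and 8 at 24 h against 6 h in WT, 5 between genotypes and 2 in the interaction. In this fit 235 of 15619 genes were called higher and 281 lower at 24 h against 0 h in WT. At 24 h against 6 h in WT, 2.57% of all genes were higher and 2.10% lower. Between genotypes 9.22% of all genes were called, and in the interaction 5.26%. Against 0 h the signs of Per1 (-0.47), Per2 (-0.74), Per3 (-0.30), Ciart (-0.97), Nr1d1 (-0.17) and Nr1d2 (-0.52) turned, as did Per1 between genotypes (1.65), where Ciart was called (3.78). Without WT replicates 3 and 4 and SIRT1intKO replicate 5, members called numbered 9 at 24 h against 0 h in WT, with 1 between genotypes and 1 in the interaction. Of all genes in that fit, 14.5% were higher and 16.4% lower at 24 h against 0 h in WT. Between genotypes 8.18% were called, near the share of the members, and in the interaction 4.02%. Then Per1 (0.76), Nr1d1 (0.44) and Nr1d2 (0.32) turned at 24 h against 6 h in WT, and Ciart (-0.35) and Upp2 (0.62) between genotypes.

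Replicate numbers did not pair livers: over 76 same-numbered pairs r ran from -0.31 to 0.22 (median 0), with 6 over 0.1, and 2 of 34 libraries correlated best with their own number. With the replicate block the members called numbered 9 and 9 at 6 h against 0 h (WT, SIRT1intKO), 2 and 7 at 24 h against 0 h, 4 and 5 at 24 h against 6 h and 0 in the other 5 comparisons, and the calls of Ciart at 24 h against 0 h in WT (1.93, adjusted p = 0.0766), Bmal1 at 24 h against 6 h in SIRT1intKO (1.15, adjusted p = 0.0832), and Nfil3 (-1.09, adjusted p = 0.0512) and Upp2 (-2.57, adjusted p = 0.0837) between genotypes were lost, as were those of Por at 24 h against 0 h (0.97) and Alas1 at 24 h against 6 h (-1.49) in WT. The block ended no other call. Shares of all genes called were not computed with the block.

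Depth limited Npas2 at 6 h, where livers gave 0 to 14 counts. Library series, hour of harvest and PHx cannot be told apart in comparisons with 0 h.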
